A study of Mus musculus with 7 samples.

Results

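Bile acids are made from cholesterol in hepatocytes, and the nuclear receptor FXR senses them and restrains their synthesis. This feedback runs in the hepatocyte through SHP, a repressor that FXR induces, and from the intestine through a growth factor that acts on a receptor complex of the hepatocyte. The 10 genes described here cover synthesis and the hepatocyte arm of the feedback, and no gene of the intestinal arm is among them. *Cyp7a1*, *Cyp7b1*, *Cyp8b1* and *Cyp27a1* encode the hydroxylases of the sterol ring and side chain, *Akr1d1* the steroid reductase, *Amacr* a racemase of side-chain shortening, and *Slc27a5* and *Baat* the ligase and transferase that conjugate bile acids. *Nr1h4* encodes FXR and *Nr0b2* encodes SHP. They were chosen by name, as the non-control probes of the array that carry one of these gene names, and 11 probes represented them, with 2 for *Slc27a5*. All 10 genes, of 18755 tested, were detected on all 7 arrays.

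RNA of whole liver from untreated C57BL/6J mice at 4 weeks of age was hybridised to 1-colour oligonucleotide arrays, 1 animal per array. All mice carried *Rbpj* flox/flox. The 4 *Rbpj*+/+ animals (Rbpj +/+_991, Rbpj +/+_1024, Rbpj +/+_1155 and Rbpj +/+_1156, written without the gene name below) lacked the AlfpCre transgene, and the 3 *Rbpj*-/- animals (Rbpj -/-_N3, Rbpj -/-_N5 and Rbpj -/-_2866) carried it and were labelled cholestatic. The Alfp promoter is active in hepatoblasts, so that both hepatocytes and cholangiocytes derive from cells with Cre, whereas the other liver cells keep *Rbpj*. The arrays came from 1 slide with the *Rbpj*+/+ samples in row 1 and the *Rbpj*-/- samples in row 2, and therefore slide row and genotype cannot be told apart.

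Levels are given as log2 intensity relative to the 75th percentile of the array, so that a value of 0 is the level of that percentile and 1 unit is a doubling. Levels of different probes are not compared with each other. *Rbpj* itself was lower in *Rbpj*-/- liver by both of its probes (brighter probe, log2 fold change -1.13, SE 0.24, limma adjusted p = 0.0115, and other probe, -1.63, limma adjusted p = 0.0723), and where these probes lie relative to the floxed part was not examined. Between 42.4% and 65.7% of spots were well above background, and dim probes were brighter on arrays +/+_1156 and -/-_N3 than on the other 5. Hepatocyte markers such as *Alb* had a mean level between 8.97 and 9.46 in *Rbpj*+/+ and between 8.46 and 8.71 in *Rbpj*-/- liver, with 8 of 9 tested markers lower. Macrophage markers had a mean level between 1.89 and 2.55 in *Rbpj*+/+ and between 4.26 and 4.74 in *Rbpj*-/- liver, with 6 of 7 higher. Of the stellate cell and fibroblast markers 6 of 8 were higher, and of the cholangiocyte markers 2 of 6 (*Sox9* and *Spp1*). Of the 6 endothelial markers 2 were higher (*Cdh5* and *Tek*) and 1 was lower. *Tek* passed the filter on dim probes only through the *Rbpj*-/- arrays, and with detection on all 7 arrays 1 endothelial marker was higher. Over all tested genes, 19.5% were lower and 14.6% higher by the same rule (limma adjusted p below 0.1). The hepatocyte count depends on the settings. Quantile normalization left 1 marker lower and 1 higher, normexp background correction left 5 lower, and no filter on dim probes left 0 lower by limma (7 at an unadjusted p below 0.05). It was 3 without -/-_N5, 4 without +/+_1024, +/+_991 or -/-_N3, and 5 without +/+_1155. Other marker counts also moved. Without the filter, 2 stellate cell and fibroblast, 0 cholangiocyte and 0 endothelial markers were higher by limma (5, 1 and 2 at an unadjusted p below 0.05). Of the cholangiocyte markers, 2 were lower and 2 higher with normexp, and 2 lower and 1 higher without +/+_1155. The macrophage count stayed at 6 or 7. In whole liver, fewer cells of a type and less RNA per cell cannot be told apart, and the part of these shifts in the results below was not tested.

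Of the 10 genes, 4 were lower in *Rbpj*-/- liver (*Cyp7b1*, *Nr1h4*, *Nr0b2* and *Slc27a5*), 2 were higher (*Cyp7a1* and *Akr1d1*) and 4 did not pass the limma test at an adjusted p of 0.1 (*Cyp8b1*, *Cyp27a1*, *Baat* and *Amacr*). Over all tested genes, 19.5% were lower and 14.6% higher by the same rule. The 10 genes had a median log2 fold change of -0.54, against -0.13 for all tested genes. In 3 genes every *Rbpj*-/- array lay below every *Rbpj*+/+ array, as in 21.1% of all tested genes, and in 2 genes every one lay above, as in 15.4%. The counts of genes that were higher or did not overlap lie close to these shares and are given as a description. The changes ranged from a 23.9-fold lower signal for *Cyp7b1* to a 4.05-fold higher one for *Cyp7a1*.

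**Figure D1:**
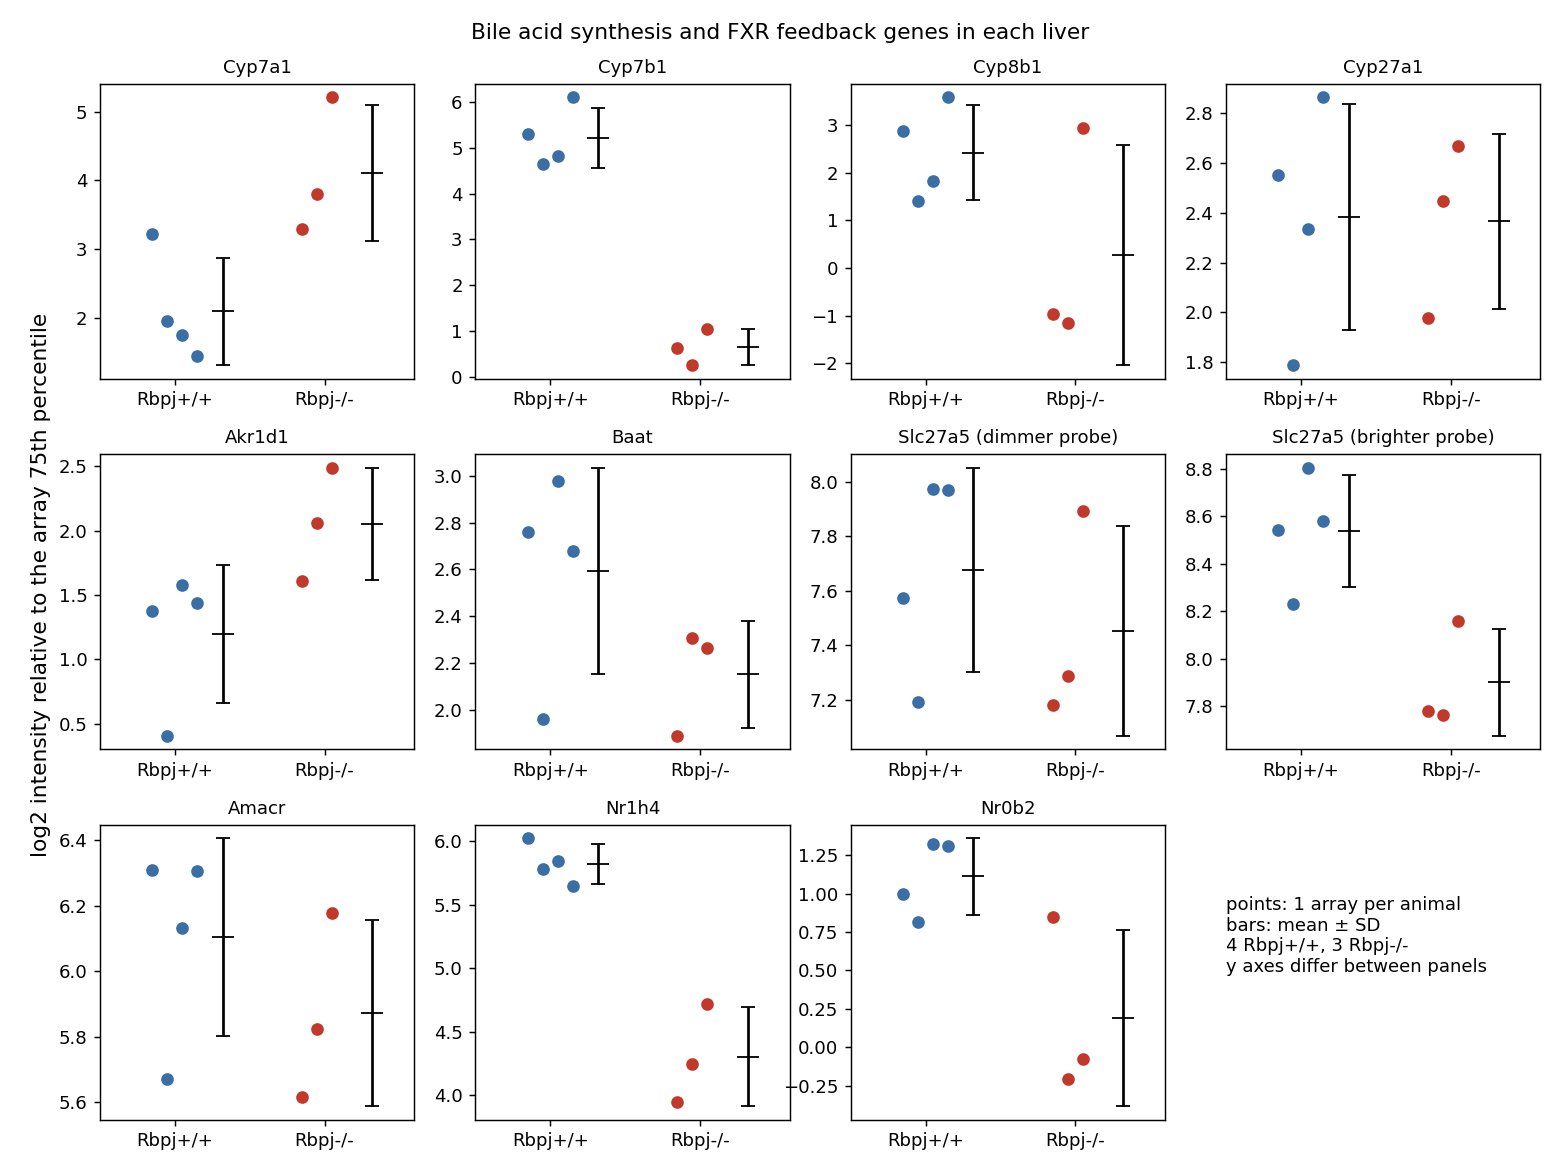
Levels of the 11 probes in each liver, as log2 intensity relative to the 75th percentile of the array (y axis, different scale in each panel), with 4 *Rbpj*+/+ animals in blue and 3 *Rbpj*-/- animals in red, and black bars for mean ± SD. *Cyp7b1* and *Nr1h4* separate the genotypes by a wide gap, *Cyp7a1* by a narrow one, and 1 *Rbpj*-/- animal stands apart in *Cyp8b1*.

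The stretches just before the gene starts of *Nr0b2*, *Cyp8b1* and *Nr1h4* are shown because these genes form the FXR and SHP arm and its best-known sterol hydroxylase target besides *Cyp7a1*. They are the 250 bases upstream of the start in RefSeq (GRCm38.p6), 5′ to 3′ in the direction of the gene, at chr4:133553126-133553375 (plus strand), chr9:121916306-121916555 (minus strand) and chr10:89506659-89506908 (minus strand).
Nr0b2: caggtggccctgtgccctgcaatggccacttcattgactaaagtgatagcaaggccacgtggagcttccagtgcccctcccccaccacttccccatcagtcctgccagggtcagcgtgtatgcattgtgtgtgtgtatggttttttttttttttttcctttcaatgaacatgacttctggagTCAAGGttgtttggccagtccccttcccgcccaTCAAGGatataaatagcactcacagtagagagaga
Cyp8b1: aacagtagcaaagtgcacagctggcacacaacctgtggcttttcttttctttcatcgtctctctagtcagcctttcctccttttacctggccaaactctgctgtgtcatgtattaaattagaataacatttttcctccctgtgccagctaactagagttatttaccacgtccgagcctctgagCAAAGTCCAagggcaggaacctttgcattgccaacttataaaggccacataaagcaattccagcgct
Nr1h4: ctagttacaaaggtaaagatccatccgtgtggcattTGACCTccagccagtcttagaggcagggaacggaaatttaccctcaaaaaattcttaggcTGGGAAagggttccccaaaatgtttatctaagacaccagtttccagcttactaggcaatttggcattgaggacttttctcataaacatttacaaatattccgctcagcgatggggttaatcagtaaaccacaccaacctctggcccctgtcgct
Capitals mark matches to 4 motifs searched on both strands. These were TCAAGG, the core of sites for the LRH-1 type of receptor, CAAAGTCCA, which resembles sites of HNF4A, AGGTCA, the half-site shared by many nuclear receptors, and TGGGAA, the core of the sequence that RBPJ binds. None of the marked matches overlap in these 3 stretches. *Nr0b2* holds TCAAGG at 68 to 63 and at 35 to 30 bases before the start, and 12.5% of all 32851 upstream windows of this length hold it. *Cyp8b1* holds CAAAGTCCA at 67 to 59 bases before the start, a motif found in 0.384% of windows. *Nr1h4* holds AGGTCA on the opposite strand, found in 14% of windows, and TGGGAA, found in 21.6%. RefSeq windows were matched for 5 of the 10 genes, and of the remaining ones with a window, *Akr1d1* held AGGTCA and TCAAGG with a partial overlap and *Cyp27a1* held none of the 4. A further motif searched, AGGTCA as an inverted repeat with any base between, was in no window of these genes and in 0.00609% of all windows. A match is a description of these letters only.

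*Nr1h4*, the gene of FXR, had levels of 6.03, 5.78, 5.84 and 5.65 in *Rbpj*+/+ animals +/+_1155, +/+_1156, +/+_1024 and +/+_991. In *Rbpj*-/- animals -/-_N3, -/-_N5 and -/-_2866 the levels were 3.94, 4.25 and 4.72. Every *Rbpj*-/- liver was below every *Rbpj*+/+ liver, and the *Rbpj*+/+ animals lay within 0.38 log2 units of each other. The signal was 2.87-fold lower in *Rbpj*-/- liver (log2 fold change -1.52, SE 0.23, limma adjusted p = 0.00321), and it was lower under each of the 18 alternative settings run. An exact permutation test of the difference of means (two-sided, 35 ways to assign 7 animals to 2 groups) gave p = 0.0286, the smallest value this design allows. Its probe lies at chr10:88917222-88917281 (mm9, minus strand).

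*Nr0b2*, the gene of SHP, had levels of 0.995, 0.815, 1.33 and 1.31 in the *Rbpj*+/+ animals in the same order. The *Rbpj*-/- levels were 0.847, -0.20 and -0.07. Animal -/-_N3 lay within the *Rbpj*+/+ range, slightly above +/+_1156, whereas -/-_N5 and -/-_2866 lay below all controls. The signal was 1.90-fold lower (log2 fold change -0.92, SE 0.29, limma adjusted p = 0.0474, exact permutation p = 0.0571). The call was lost without +/+_1024, +/+_991, -/-_N5 or -/-_2866, with limma adjusted p up to 0.174, while the log2 fold change stayed between -1.25 and -0.73 whichever animal was left out. The call was also lost without the filter on dim probes (limma adjusted p = 0.238). The probe lies at chr4:133109694-133109753 (mm9, plus strand).

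*Cyp7a1* encodes the rate-limiting hydroxylase of the classical pathway and is the best-known gene that SHP and intestinal feedback repress. Its levels were 3.22, 1.95, 1.74 and 1.44 in the *Rbpj*+/+ animals. In the *Rbpj*-/- animals they were 3.29, 3.81 and 5.22. The groups did not overlap, but -/-_N3 and +/+_1155 were nearly equal, and -/-_2866 was the highest of all. The signal was 4.05-fold higher in *Rbpj*-/- liver, with a 95% confidence interval of 1.77 to 9.26-fold (log2 fold change 2.02, SE 0.53, limma adjusted p = 0.0265, exact permutation p = 0.0571). It passed with each of the 7 animals left out in turn, with log2 fold changes from 1.46 to 2.42. Without the filter on dim probes the limma adjusted p was 0.168, with an SE of 0.60 at the same fold change. The probe lies at chr4:6193456-6193515 (mm9, minus strand).

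*Cyp8b1* encodes the sterol hydroxylase that cholic acid synthesis requires, and it is the other classical target of SHP. Its levels were 2.86, 1.40, 1.82 and 3.59 in the *Rbpj*+/+ animals. The *Rbpj*-/- levels were -0.97, -1.15 and 2.94. Animals -/-_N3 and -/-_N5 lay below every control, whereas -/-_2866 lay within the control range. The log2 fold change was -2.14 (SE 0.96, 95% confidence interval -4.32 to 0.04), which did not pass (limma adjusted p = 0.136, exact permutation p = 0.2). Without -/-_2866 it was -3.48 with a limma adjusted p of 0.00953, and with all animals it also passed under limma-trend, array weights and detection on all 7 arrays (limma adjusted p of 0.0930, 0.0949 and 0.0943). The same animal had the highest level of *Cyp7a1*. The probe lies at chr9:121824595-121824654 (mm9, minus strand).

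*Cyp7b1*, the oxysterol hydroxylase of the alternative pathway, showed the largest change of the 10 genes. Its levels were 5.31, 4.65, 4.83 and 6.11 in the *Rbpj*+/+ animals. They were 0.64, 0.26 and 1.04 in the *Rbpj*-/- animals. Before normalization the spot had intensities between 1636 and 5164 on *Rbpj*+/+ arrays and between 155 and 243 on *Rbpj*-/- arrays. The groups lay far apart, and the signal was 23.9-fold lower in *Rbpj*-/- liver, with a 95% confidence interval of 13.6 to 42.1-fold (log2 fold change -4.58, SE 0.36, limma adjusted p = 0.000265, exact permutation p = 0.0286). Leaving out any animal kept the log2 fold change between -4.78 and -4.28. The probe lies at chr3:17972286-17972345 (mm9, minus strand).

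*Cyp7b1* is known to be higher in male than in female mouse liver, and the labels do not give the sex of the animals. The Y-linked genes *Ddx3y* and *Eif2s3y* were detected on all 7 arrays, with *Ddx3y* between 2.11 and 2.76 in *Rbpj*+/+ and between 2.47 and 2.82 in *Rbpj*-/- liver. Of 9 tested genes known to be male-biased in mouse liver, 9 were lower in *Rbpj*-/- liver, against 19.5% of all tested genes. However, 4 of them passed the filter on dim probes only through the *Rbpj*+/+ arrays. The list was also chosen with earlier results of these data known, so that its count is no independent evidence. The other 5 were detected on all 7 arrays. *Elovl3*, a fatty acid elongase, was about 294-fold lower and at background level on each of the 3 *Rbpj*-/- arrays. *Hsd3b5*, a steroid dehydrogenase, and *Cyp4a12b*, a fatty acid hydroxylase, were each detected on 1 of 3 *Rbpj*-/- arrays and were about 1190-fold and 564-fold lower. These folds set each *Rbpj*-/- array to its lowest signal among detected probes where the gene lay below it. They depend on the background treatment and are not lower limits. With normexp background correction the log2 fold changes were -5.28 for *Elovl3*, -7.91 for *Hsd3b5* and -6.53 for *Cyp4a12b*. The part of this shift in the *Cyp7b1* result was not tested.

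*Cyp27a1* starts the alternative pathway in the mitochondrion by hydroxylating the side chain. Its levels were 2.55, 1.79, 2.33 and 2.86 in *Rbpj*+/+ and 1.98, 2.45 and 2.67 in *Rbpj*-/- animals, and the groups overlapped over most of their range. The log2 fold change was -0.02 (SE 0.29, 95% confidence interval -0.67 to 0.63, limma adjusted p = 0.968), so that a change of up to 1.59-fold lower or 1.55-fold higher lies within the interval. The array carries 10 spots of this probe, at chr1:74782203-74782262 (mm9, plus strand), and the SD between spots of 1 array was at most 0.105 log2 units, against an SD of 0.45 between *Rbpj*+/+ animals.

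*Akr1d1* reduces the steroid ring after the ring hydroxylations. Its levels were 1.38, 0.41, 1.58 and 1.44 in the *Rbpj*+/+ animals. They were 1.61, 2.06 and 2.49 in the *Rbpj*-/- animals, all above the controls, with -/-_N3 only slightly above +/+_1024. The signal was 1.81-fold higher (log2 fold change 0.85, SE 0.33, limma adjusted p = 0.0905, exact permutation p = 0.0571). The call was lost when any animal other than -/-_N3 was left out (limma adjusted p up to 0.262), and without +/+_1156, whose level was the lowest, the log2 fold change was 0.59. The call was also lost without the filter on dim probes (limma adjusted p = 0.344). The probe lies at chr6:37518113-37518172 (mm9, plus strand).

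*Amacr*, needed for the peroxisomal shortening of the side chain, had levels of 6.31, 5.67, 6.13 and 6.31 in *Rbpj*+/+ and 5.62, 5.82 and 6.18 in *Rbpj*-/- animals. The groups overlapped, and the log2 fold change of -0.23 did not pass (SE 0.23, 95% confidence interval -0.76 to 0.30, limma adjusted p = 0.494). Its 10 spots, at chr15:10925139-10925198 (mm9, plus strand), had an SD of at most 0.164 within an array.

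*Slc27a5* encodes the ligase that activates bile acids for conjugation, and its 2 probes gave different calls. The brighter probe (chr7:13573701-13573760, mm9, minus strand) had levels of 8.54, 8.23, 8.80 and 8.58 in *Rbpj*+/+ and 7.78, 7.76 and 8.16 in *Rbpj*-/- animals. These groups did not overlap, and the signal was 1.56-fold lower (log2 fold change -0.64, SE 0.21, limma adjusted p = 0.0569). The other probe (chr7:13573924-13573983) had levels of 7.57, 7.19, 7.97 and 7.97 in *Rbpj*+/+ and 7.18, 7.29 and 7.89 in *Rbpj*-/- animals, with overlap and a log2 fold change of -0.22 (SE 0.27, limma adjusted p = 0.573). The call of the brighter probe was lost after quantile normalization (log2 fold change -0.27, limma adjusted p = 0.228), after normexp background correction (-0.29, limma adjusted p = 0.142), and without +/+_1024, +/+_991, -/-_N3 or -/-_N5 (limma adjusted p up to 0.181). That call was also lost without the filter on dim probes (limma adjusted p = 0.272). Quantile normalization put the other probe at 0.12, on the other side of 0.

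*Baat*, the transferase that joins the activated bile acid to an amino acid, had levels of 2.76, 1.96, 2.98 and 2.68 in *Rbpj*+/+ animals. They were 1.89, 2.30 and 2.26 in *Rbpj*-/- animals, and only +/+_1156 among the controls overlapped with them. The log2 fold change was -0.44 (SE 0.27, 95% confidence interval -1.05 to 0.16, limma adjusted p = 0.256), and without +/+_1156 it was -0.65 with a limma adjusted p of 0.0455. The probe lies at chr4:49502933-49502992 (mm9, minus strand).

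**Figure D2:**
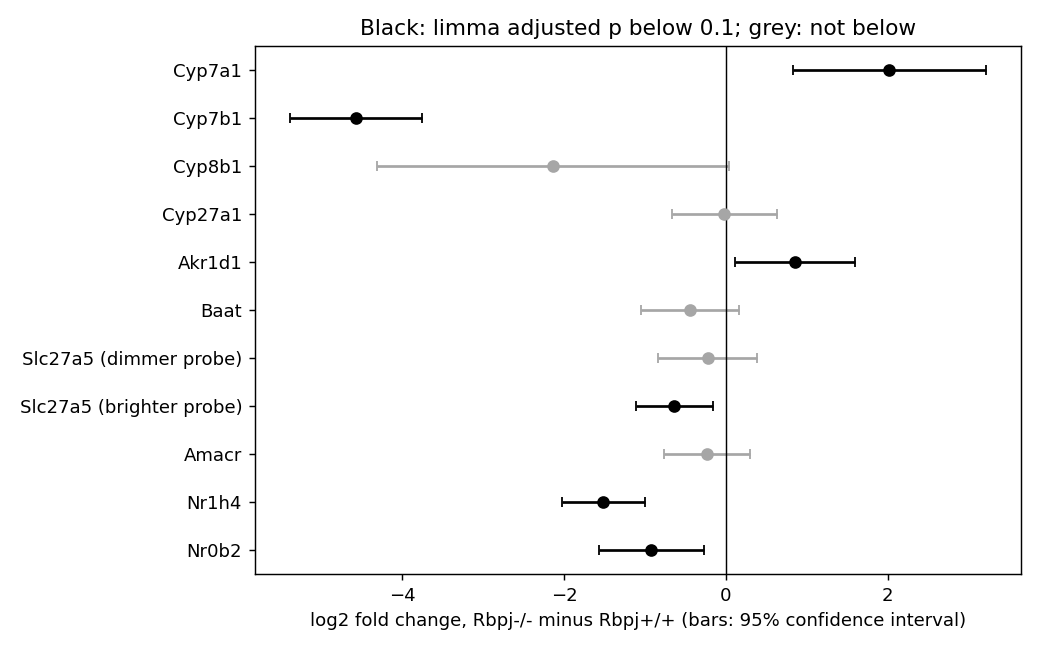
Log2 fold change of each probe, *Rbpj*-/- minus *Rbpj*+/+ (x axis), with 95% confidence intervals from limma over 4 and 3 animals. Black marks the probes with an adjusted p below 0.1. The interval of *Cyp8b1* reaches from -4.32 to 0.04, and those of *Cyp27a1*, *Baat*, *Amacr* and the dimmer *Slc27a5* probe include 0.

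Other genes of bile acid synthesis were mostly lower. Of 12 tested, 8 were lower and 0 were higher by limma (0 also at an unadjusted p below 0.05), with a median log2 fold change of -0.74. Over all tested genes 19.5% were lower and 14.6% higher. Of the hepatocyte markers 8 of 9 were lower, with a median of -0.66, and the part of that shift in this count was not tested. *Hsd3b7*, the steroid dehydrogenase that follows the ring hydroxylation by *Cyp7a1* and *Cyp7b1*, had levels of 7.94, 7.45, 7.82 and 8.08 in *Rbpj*+/+ and 5.93, 5.95 and 7.25 in *Rbpj*-/- animals. It was 2.72-fold lower (log2 fold change -1.44, SE 0.34, limma adjusted p = 0.0182), and -/-_2866 was again the *Rbpj*-/- animal nearest to the controls. *Slc27a2*, another CoA ligase for bile acid intermediates, was 2.60-fold lower (limma adjusted p = 0.00581), and *Cyp46a1*, a cholesterol hydroxylase, was 1.96-fold lower (limma adjusted p = 0.00751). The side-chain enzymes *Hsd17b4*, *Acot8* and *Scp2* were 1.75, 1.69 and 1.65-fold lower (limma adjusted p of 0.0265, 0.0252 and 0.0656). *Acox2*, the oxidase of the same peroxisomal route, had a log2 fold change of 0.20 (limma adjusted p = 0.594), *Cyp39a1*, an oxysterol hydroxylase, 0.25 (0.517), and *Cyp2c70*, which makes muricholic acids in mice, -0.71 (0.144). Quantile normalization left 5 of the 12 lower and 1 higher. The *Scp2* call was lost under 8 of the 18 alternatives, among them 5 of the 7 with an animal left out (all but +/+_1156 and -/-_2866). With the mean of all probes, *Acot8* was at -0.52 (limma adjusted p = 0.1068) and *Scp2* at -1.02 (limma adjusted p = 0.0153).

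Among 11 tested FXR targets and enterohepatic feedback genes, 4 were lower and 2 higher, with a median log2 fold change of -0.10. The shares over all tested genes were 19.5% lower and 14.6% higher. *Slc51b*, a subunit of the basolateral bile acid exporter and an FXR target, had levels of -1.94, -1.47, -0.54 and -1.57 in *Rbpj*+/+ and 2.58, 2.66 and 1.87 in *Rbpj*-/- animals. All *Rbpj*-/- livers lay far above the controls, and the signal was 13.5-fold higher (log2 fold change 3.75, SE 0.35, limma adjusted p = 0.000487). The size depends on the background treatment, and with normexp the log2 fold change was 2.65. *Slc51a*, the gene of the other exporter subunit, did not pass the filter on dim probes and was not tested. *Nr0b2*, which FXR also induces, had a log2 fold change of -0.92 in the same fit. *Sdc1*, a heparan sulphate proteoglycan, was 2.17-fold higher (limma adjusted p = 0.0172), whereas *Osgin1*, an oxidative stress gene, was 2.48-fold lower (limma adjusted p = 0.0127). *Slc10a1*, the sodium-dependent uptake transporter for bile acids, was 1.86-fold lower (limma adjusted p = 0.0122), and *Fetub*, a secreted protease inhibitor, 1.65-fold lower (limma adjusted p = 0.0220). *Abcb11*, the canalicular bile salt export pump, had a log2 fold change of -0.56 and did not pass (limma adjusted p = 0.228). Of the hepatocyte receptor for the intestinal signal, *Fgfr4* was 1.43-fold lower (limma adjusted p = 0.0534), and its partner *Klb* had a log2 fold change of 0.13 (limma adjusted p = 0.785). After quantile normalization the calls of *Slc10a1*, *Fetub* and *Fgfr4* were lost (limma adjusted p of 0.112, 0.103 and 0.115), and *Osgin1* was the only gene of the list called lower. The *Fgfr4* call was lost under 10 of the 18 alternatives, among them 5 of the 7 with an animal left out (all but +/+_1155 and +/+_1156) and the mean of its probes (log2 fold change -0.19, limma adjusted p = 0.423).

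Nuclear receptors and regulators that act on *Cyp7a1* and *Cyp8b1* were measured too. Of 12 tested, 4 were lower and 0 higher by limma (0 also at an unadjusted p below 0.05), with a median log2 fold change of -0.50. Among all tested genes the shares were 19.5% lower and 14.6% higher. *Ppara*, the fatty acid receptor, was 2.63-fold lower (limma adjusted p = 0.00962). *Nr5a2*, which encodes LRH-1, the partner that SHP inhibits, was 1.62-fold lower (limma adjusted p = 0.0408), and *Rxra*, the dimer partner of FXR, 1.44-fold lower (limma adjusted p = 0.0540). *Cebpa*, a hepatocyte transcription factor, had levels of 3.43, 3.24 and 4.95 in -/-_N3, -/-_N5 and -/-_2866 against 4.63 to 5.07 in the controls, so that -/-_2866 lay in the control range (log2 fold change -1.01, limma adjusted p = 0.0877). *Onecut1*, a hepatocyte and biliary transcription factor, had a log2 fold change of -2.08 and did not pass (limma adjusted p = 0.110, detected in 2 of 3 *Rbpj*-/- livers). Its value was -0.73 with normexp and -1.09 without -/-_2866, smaller than that of *Ppara* under the same settings (-1.16 and -1.61). *Hnf4a*, an activator of both hydroxylase genes, had a log2 fold change of -0.32 (limma adjusted p = 0.216). The calls of *Cebpa* and *Rxra* were lost under 11 and 9 of the 18 alternatives, and that of *Nr5a2* under 5. With the mean of all probes, *Nr5a2* was at -0.40 (limma adjusted p = 0.2295) and *Rxra* at -0.33 (limma adjusted p = 0.1945).

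**Figure D3:**
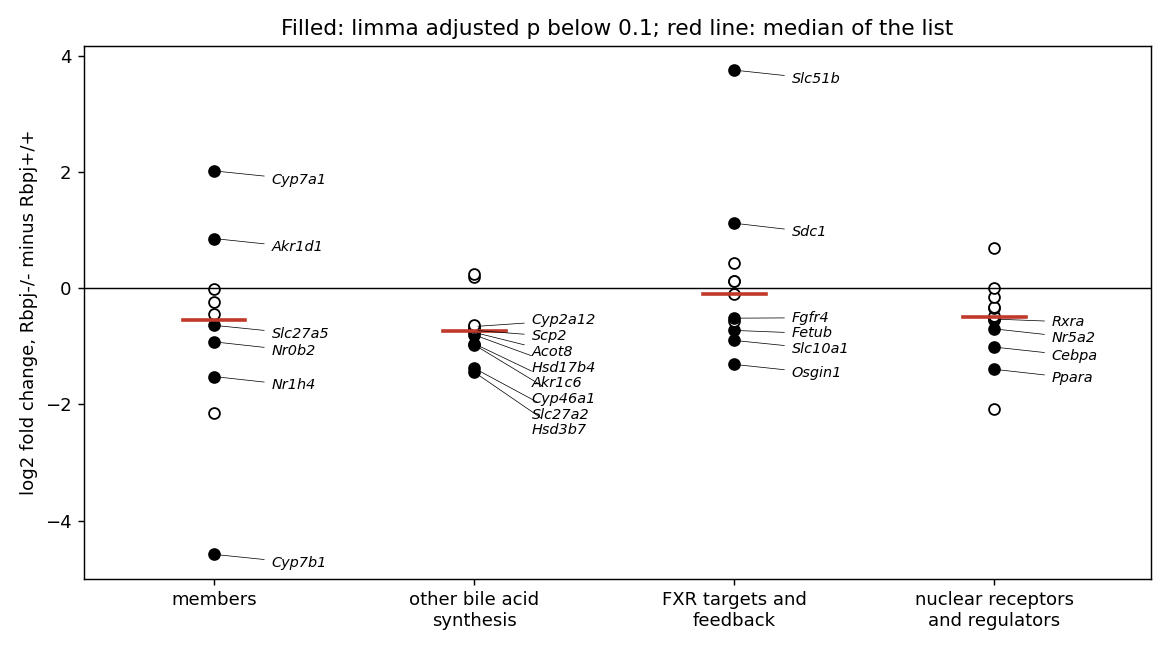
Log2 fold change, *Rbpj*-/- minus *Rbpj*+/+ (y axis), of the 10 members and of the 3 other lists of tested genes (x axis), each point a gene, filled where the limma adjusted p was below 0.1, with the median of each list in red. The members spread from -4.58 to 2.02, the other synthesis genes lie mostly below 0, and *Slc51b* lies at 3.75.

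The genes whose levels followed *Cyp7a1* most closely over the 7 arrays were *Coro1b* (Pearson r = 0.991), *Plxnb1* (0.988) and *Cdca3* (0.980). For *Nr0b2* they were *Gm14321* (0.990), *Fgd6* (0.982) and a probe that the array names only by its position (0.982). They are the highest of 18754 genes compared, over 7 arrays that share slide, genotype and depth differences, and serve as a description only.

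**Figure D4:**
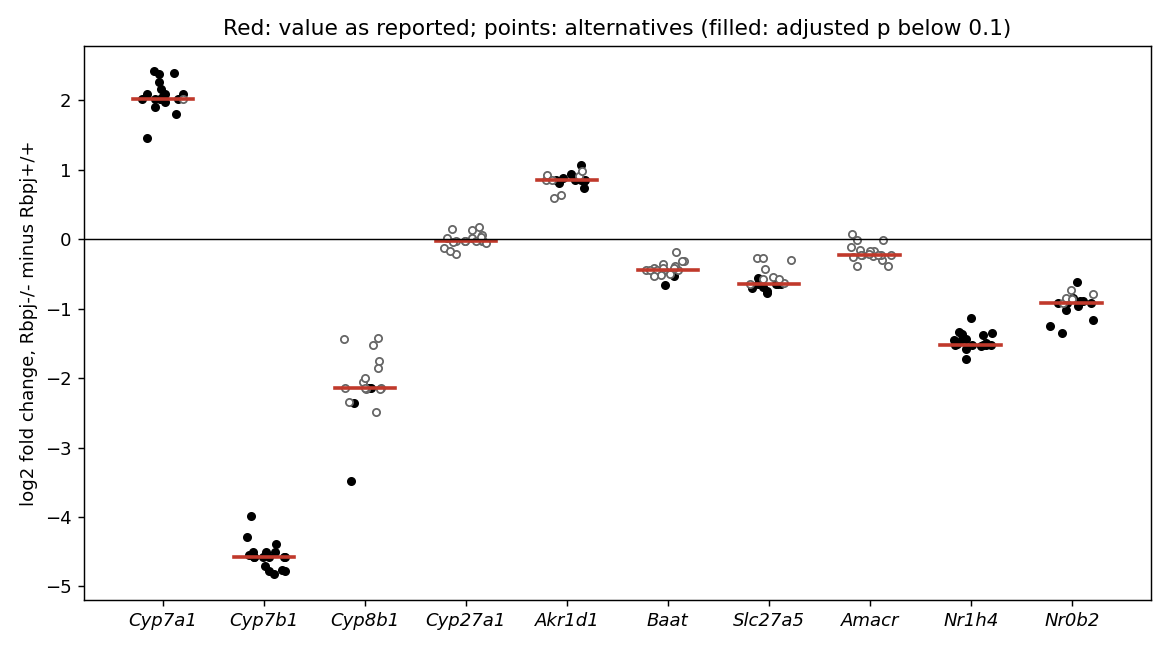
Log2 fold change, *Rbpj*-/- minus *Rbpj*+/+ (y axis), of the 10 genes (x axis), with the reported value in red and 18 alternative settings as points, filled where the limma adjusted p was below 0.1. *Cyp7b1* and *Nr1h4* passed under all 18, *Cyp7a1* under 17, *Nr0b2* under 13, *Akr1d1* under 11 and *Slc27a5* under 9.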

How the data were processed

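Liver RNA of 7 mice was measured on 1-colour arrays. The authors deposited Feature Extraction (10.7.3.1) spot intensities, background-subtracted and not normalized between arrays, and a series matrix of log2 values. Its columns have medians near 0 and, across probes, correlate with quantile-normalized, probe-centred log2 intensities at an r that rounds to 1.00 on every array. Probe coordinates are those of the array design (mm9).

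Control probes and spots flagged as non-uniform or population outliers (1186 values) were removed, spots of a probe were averaged as log2, and each array's 75th percentile was subtracted. A probe was tested if well above background on all arrays of a genotype. Genotypes were compared by limma 3.58.1 (R 4.3.3) with Benjamini-Hochberg adjustment over 24548 probes at 0.1, the study's threshold. Limma stands in for its shrinkage t. The brightest tested probe represented a gene. The number of arrays limits precision. The limma p-values set the difference between genotypes against the spread between animals, with the variance of each probe drawn towards that of all tested probes. They cannot separate genotype from slide row. The fit was also run on simulated data with independent noise per probe and known shifts. That run checks the code and says nothing about the calls above, because differences shared between probes were not simulated. Figures used Python 3.11.15, pandas 2.3.3 and matplotlib 3.10.9.

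Named were all members, *Rbpj*, the 3 largest changes per list, genes acting beside a member and the 3 genes most like *Cyp7a1* and *Nr0b2*. Members and lists were chosen with earlier results of these data known. Not every gene the rule covers is given a value.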

Additional observations from a re-analysis of the deposited data

Results flagged for a closer look

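The level of *Akr1d1* in *Rbpj*+/+ animal +/+_1156 stood apart from the other 3 controls. Its gap to the nearest of them was 0.830 of the whole range of the group, just past the critical value of Dixon's test at the 95% level, and chance alone passes this test in about 1 of 20 groups. The ratio was computed for each of the 11 probes, so that this rate applies to each of them, and no other probe passed. Animal +/+_1156 also had the lowest control level of *Cyp7b1*, *Cyp8b1*, *Cyp27a1*, *Baat*, *Amacr*, *Nr0b2* and both *Slc27a5* probes, so that its low position is not particular to *Akr1d1*. Array +/+_1156 is one of the 2 arrays with brighter dim probes.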

How the results depend on the processing

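Each choice was changed on its own: the background (normexp, offset 50), the scaling (quantile, or the 75th percentile of detected probes), the filter (none, or detection on all 7 arrays), the use of compromised spots, the fit (limma-trend or array weights), the threshold (0.05), the source (the series matrix), the probe rule (a mean over probes) and the animals (each left out). The omission of arrays +/+_1156 and -/-_N3 together was chosen after seeing the data and left 4 of the 10 genes lower and 2 higher. Over the 10 genes, 144 of 180 alternative values kept their direction and their side of the threshold, 22 lost the call, 6 gained it and 8 changed sign. These 180 values leave out the threshold of 0.05 and include the joint omission. They also count quantile normalization and the series matrix separately, although the values of these are nearly the same. The sign changes concerned genes without a call. *Cyp27a1* was at 0.15 with normexp, 0.0189 with quantile normalization, 0.0612 with the percentile of detected probes and 0.0210 in the series matrix, and between -0.22 and 0.17 with an animal left out (above 0 without +/+_1155, +/+_991 or -/-_N3). *Amacr* was at 0.0760 with normexp, *Hnf4a* at 0.0403 with quantile normalization and 0.0444 in the series matrix, and *Klb* between -0.19 and 0.43 with an animal left out (below 0 without -/-_2866).

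Without the filter on dim probes 2 members were lower and 0 higher by limma (1 higher at an unadjusted p below 0.05). More genes are then tested and the SE of *Cyp7a1* also rose from 0.53 to 0.60. At 0.05, 3 were lower and 1 higher, without *Slc27a5* and *Akr1d1*. With an animal left out, 2 to 5 were lower and 1 to 2 higher. The lower count fell to 2 without +/+_1024, +/+_991 or -/-_N5, and the higher count to 1 without +/+_1155, +/+_1156, +/+_1024, +/+_991, -/-_N5 or -/-_2866. Of the other synthesis genes, 5 were lower and 1 higher with quantile normalization and in the series matrix, 2 were lower without the filter, and 5 to 10 were lower with an animal left out (5 without -/-_N3 or -/-_N5). Of the FXR and feedback genes, 4 were higher with normexp, 1 was lower with quantile normalization and in the series matrix, and 0 were lower (4 at an unadjusted p below 0.05) and 1 higher without the filter by limma. With an animal left out, 3 to 4 were lower and 2 to 3 higher. Of the regulators, 2 were lower with the percentile of detected probes, at 0.05 and with the mean of all probes, and 1 without the filter, while 1 was higher with normexp and with the mean of all probes. With an animal left out, 1 to 5 regulators were lower and 0 to 1 higher, and the lower count fell most without +/+_1024 or -/-_N5. Of the male-biased genes, 5 were lower with detection on all 7 arrays, which leaves 5 of the 9 genes to test. Over all genes, 3665 were lower and 2741 higher, against 671 and 968 without the filter, 2382 and 2039 at 0.05, and 1871 to 4360 and 1845 to 2740 with an animal left out. Except for the male-biased genes, the cause of these shifts was not tested. No paired analysis was possible because the genotypes share no replicate numbers.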
